A study of Mus musculus with 12 samples.

Results

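The genes described here are 10 genes of MHC class I antigen presentation. Features measured well enough to test numbered 25741, of which 13880 were named genes. The 10 genes were chosen by name, with earlier results of these data known. They encode the class I heavy chains H2-K1 and H2-D1, their light chain B2m, the peptide transporter subunits Tap1 and Tap2, the loading factor tapasin (Tapbp), the immunoproteasome subunits Psmb8, Psmb9 and Psmb10, and Nlrc5. They were measured in CD8+ T cells of female C57BL/6 mice on 12 Agilent 1-colour arrays. Each array was hybridized with RNA of 1 sample. Total CD8+ T cells were taken from the gut-draining mesenteric lymph nodes (MLN) and from peripheral lymph nodes (PLN). In each node there was 1 array of AID KO cells, 1 array of uMT cells and 2 arrays of WT cells. Naive CD8+ T cells, gated for low CD44, came from PLN of uMT and AID KO mice only and were split into Sca1p and Sca1m fractions, read here from the sorting protocol as Sca-1 positive and negative, with 1 array each. AID KO mice lack activation-induced deaminase, the enzyme of antibody class switching, and uMT mice, whose membrane IgM heavy chain is disrupted, make no mature B cells, so both altered genes are known for their role in B cells, while T cells were profiled. The age of the mice is not given in the sources used here, and the design text says that there are no replicates. The labels do not say that the 2 WT arrays of a node came from separate mice, so the p-values below measure only the spread between these samples around the fit, which may be technical.

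Class I molecules show peptides from inside the cell to CD8+ T cells, and nearly every nucleated cell carries them, T cells included. The proteasome cuts proteins into peptides, TAP pumps the peptides into the endoplasmic reticulum, and tapasin holds the empty class I molecule at TAP until a peptide is bound. Interferons raise the expression of the whole set in many cell types. They exchange 3 catalytic subunits of the constitutive proteasome for Psmb8, Psmb9 and Psmb10, and they induce Nlrc5, a transactivator that works with the RFX complex, CREB/ATF and NF-Y at a conserved X and Y box module of class I promoters.

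The starts of these genes are shown first, because the shared elements are part of what makes the genes a set. RefSeq promoters (GRCm38.p6) were at hand for 8 of the 10 genes, and the bases before the start are printed 5′ to 3′ on the strand of the gene. Capitals mark matches, on either strand, to 4 motifs, namely the interferon-stimulated element (a pair of GAAA runs with 2 bases of any kind between them), the gamma-activated site TTCNNNGAA, the CCAAT box of the Y element and the core TGACG of the X2 element. Psmb9 and Tap1 are transcribed away from each other and share the whole 225-base stretch between their starts, at chr17:34187331-34187555, which is printed on the Tap1 strand. The other stretches are the 200 bases before the start of B2m at chr2:122147487-122147686 (plus strand), of H2-K1 at chr17:34000348-34000547 (minus strand), of H2-D1 at chr17:35262894-35263093 (plus strand) and of Psmb8 at chr17:34197995-34198194 (plus strand).
Psmb9 and Tap1: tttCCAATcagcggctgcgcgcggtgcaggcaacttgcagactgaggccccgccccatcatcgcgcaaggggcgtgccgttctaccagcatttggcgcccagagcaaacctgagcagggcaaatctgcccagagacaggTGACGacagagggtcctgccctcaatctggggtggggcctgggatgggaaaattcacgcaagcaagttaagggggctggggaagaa
B2m: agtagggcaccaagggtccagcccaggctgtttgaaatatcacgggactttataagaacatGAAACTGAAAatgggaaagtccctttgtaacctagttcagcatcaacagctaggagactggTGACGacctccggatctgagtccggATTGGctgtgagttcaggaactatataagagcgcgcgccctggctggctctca
H2-K1: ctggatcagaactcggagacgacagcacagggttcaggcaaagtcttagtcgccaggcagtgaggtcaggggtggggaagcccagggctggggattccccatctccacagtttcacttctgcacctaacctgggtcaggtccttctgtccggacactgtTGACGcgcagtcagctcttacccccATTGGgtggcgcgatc
H2-D1: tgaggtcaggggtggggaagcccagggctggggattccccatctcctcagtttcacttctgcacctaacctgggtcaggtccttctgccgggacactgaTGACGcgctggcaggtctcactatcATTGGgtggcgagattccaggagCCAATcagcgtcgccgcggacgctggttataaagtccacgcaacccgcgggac
Psmb8: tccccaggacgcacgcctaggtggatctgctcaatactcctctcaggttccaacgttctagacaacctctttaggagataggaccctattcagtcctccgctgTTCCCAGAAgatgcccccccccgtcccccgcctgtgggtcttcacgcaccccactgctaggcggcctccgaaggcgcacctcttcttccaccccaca

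In the 300-base window that RefSeq gives around each start, the CCAAT box occurred in 6 of the 8 genes, against 37.4% of all 32851 mouse promoters of that length. TGACG occurred in 5 of the 8 genes, namely B2m, H2-K1, H2-D1, Psmb9 and Tap1, against 20.8% of all promoters. The CCAAT box and the TGACG of Psmb9 and Tap1 are the same sites in their shared stretch. Both counts therefore include a shared site for each of these genes. The exact form of the interferon-stimulated element searched for here occurred in B2m only, from base -139 to base -130 relative to the start. Of all promoters 3.44% hold that form. Looser forms of the element were not searched for, so a gene without a match may still hold one. TTCNNNGAA occurred in Psmb8 only, from base -97 to base -89, and 8.30% of all promoters hold it. In B2m, H2-K1 and H2-D1 a TGACG was followed after 20 bases by ATTGG, the reverse complement of CCAAT, an arrangement found in 31 promoters (0.0944%) and looked for after the single matches had been seen. None of the motifs overlapped another. The 300-base windows of H2-K1 and H2-D1 were aligned on TGACG and compared up to the end of the ATTGG that follows it. They were identical there at 157 of 179 bases (87.7%), some of which lie outside the printed stretches. A match describes these letters and is no evidence that a factor binds there.

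The label of the cells was checked against markers. All 11 genes of the CD8 T cell list (Cd3d, Cd8a, Cd8b1, Lck and others) were well above background on all 12 arrays. Of the B cell list, 7 of 12 genes were measured well enough to test. Bank1, Cd22, Cd79b and Cr2 were well above background on all 12 arrays, Pax5 on 7, Spib on 4 and Cd79a on 2. The summed level of the B cell list relative to the array's 75th percentile was 7.6 to 10.6 in knockout total cells and 6.5 to 7.8 in WT total cells, against 1408 to 1703 for the CD8 T cell list in WT. The erythroid list stood out, with 3 of 8 genes testable and a summed level of 2.8 to 13.1 in knockout and 4.2 to 6.5 in WT MLN cells, against 0.5 to 1.9 in knockout and 0.2 to 0.6 in WT PLN cells. Its part in the differences between nodes was not tested.

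All 10 class I presentation genes were bright. Each was well above background on all 12 arrays, with processed intensities between 8764 for Tap1 and 235351 for H2-K1, and no spot was saturated. Values below are log2 intensities above the array's own 75th percentile, so that 0 is the brightness of the 75th percentile and 1 unit is a doubling. They compare arrays for 1 gene and not 1 gene with another. Across the 12 arrays the range of a gene ran from 0.41 for H2-D1 and 0.44 for Tap2 to 0.97 for Tap1 and 1.39 for B2m. Part of this range lay between the WT arrays of slides 1 and 2, where slide and sample cannot be told apart. On slide 2 the WT array was brighter than on slide 1 for B2m by 0.56 in MLN cells and 0.45 in PLN cells, and for Psmb10 by 0.70 and 0.56. For Psmb8 the WT array of slide 2 was dimmer, with a difference of -0.34 in MLN cells and -0.36 in PLN cells. Other features as bright as these genes had median differences of 0.21 in MLN and 0.14 in PLN cells. Under quantile normalization the differences in MLN and PLN cells were 0.13 and 0.03 for B2m, 0.35 and 0.33 for Psmb10, and -0.48 and -0.41 for Psmb8. Each knockout array was therefore set against the WT array of its own node and slide, and the fits carry a term for slide. The 4 naive arrays shared slide 3 with no other sample, so cell type and slide cannot be told apart there, and naive cells were not set against total cells.

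**Figure D1:**
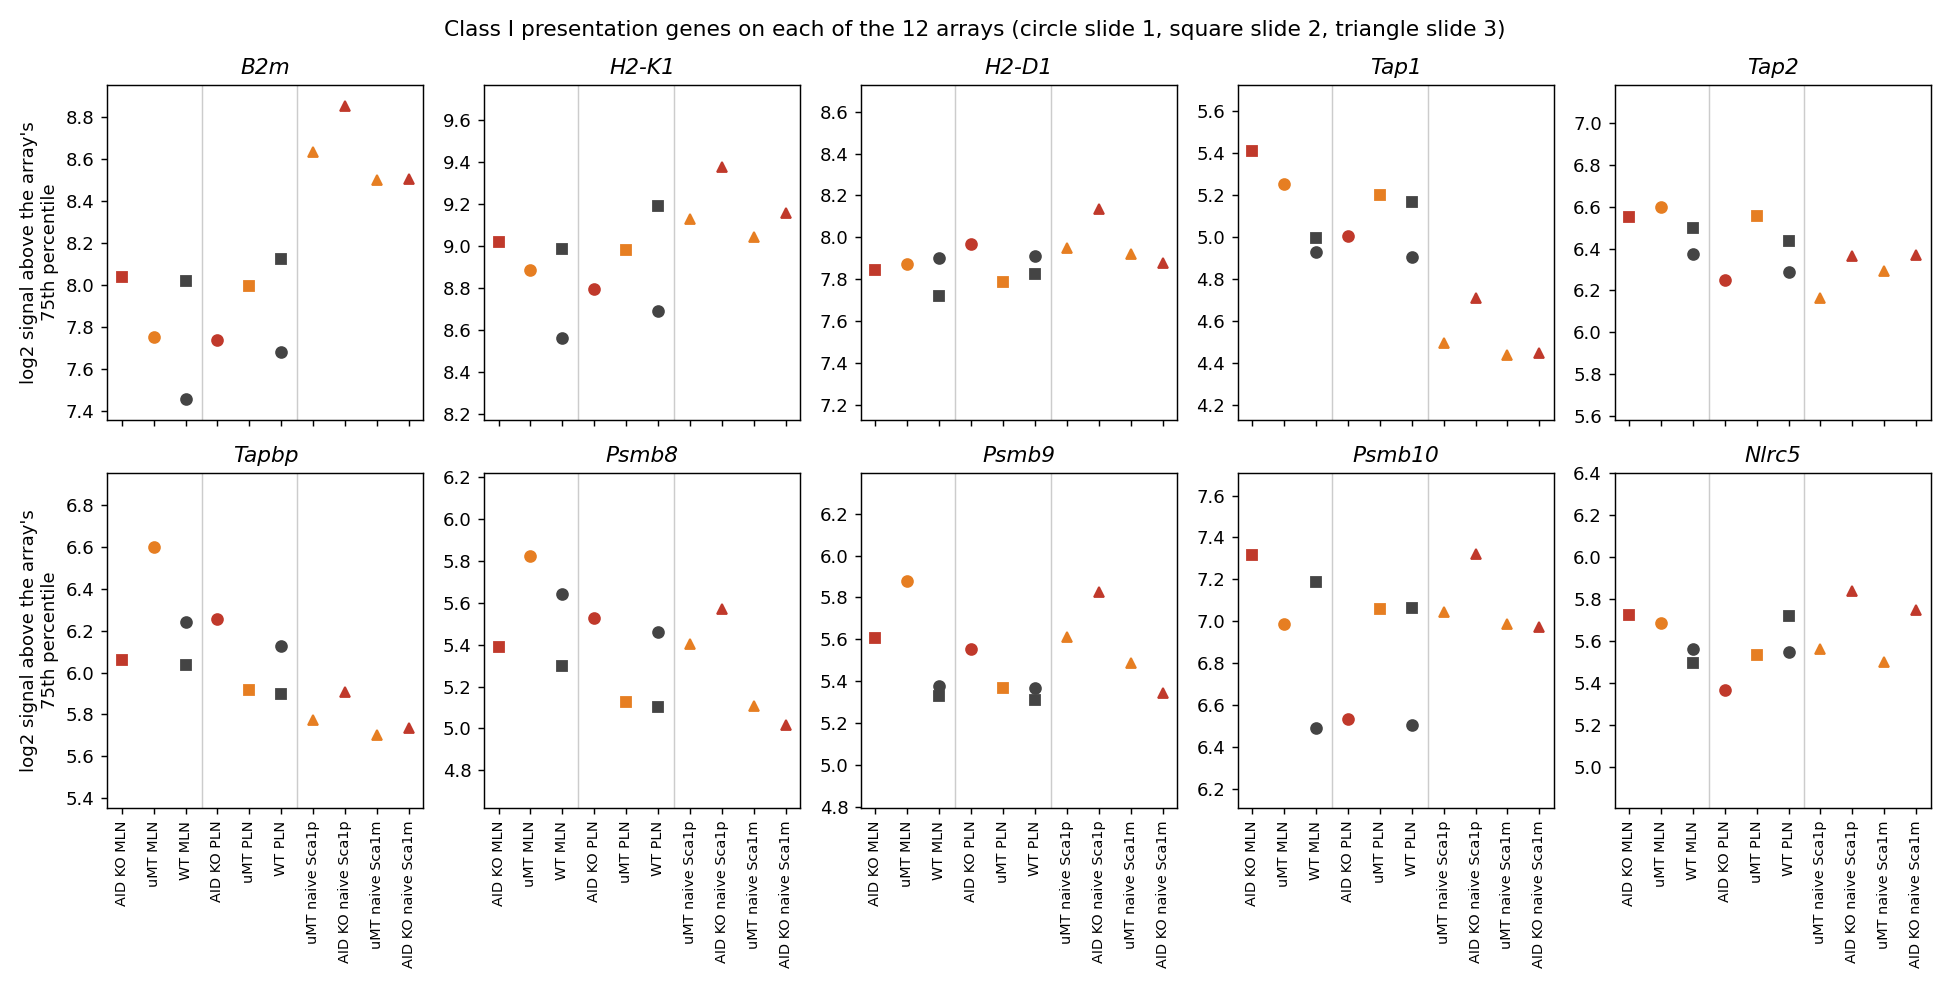
Log2 signal above the array's 75th percentile (y axis, the same span of 1.6 units in every panel) of each of the 10 genes on each of the 12 arrays, grouped by genotype, node and fraction. Each point is 1 array and its shape gives the slide. The squares and circles of WT lie 0.70 apart for Psmb10 in MLN and 0.05 apart for Psmb9.

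The first comparison asked whether knockout cells of the gut-draining nodes differed from WT cells. None of the 10 genes passed the test there (limma, Benjamini-Hochberg adjustment over all features, threshold 0.05), while 46 of 25741 features did, which is 0.179%. All 10 genes were nevertheless higher in the mean of the knockouts than in WT, by 0.05 (H2-D1) to 0.39 (Psmb9) with a median of 0.18, against a median of 0.02 over all features. Under quantile normalization the median was 0.05 and H2-D1 was lower, at -0.13. With the mean of all probes of a gene 8 of 10 were higher. Without the uMT MLN array 7 of 10 were higher with a median of 0.09, and without the AID KO MLN array the median was 0.37. Features as bright as these genes, 1796 in number, had a median of 0.12 in the same comparison. In these bulk samples a difference in the share of cells that express a gene and one in RNA per cell cannot be told apart.

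Psmb9, a catalytic subunit of the immunoproteasome, gave the largest difference in that comparison. It measured 5.60 in AID KO and 5.88 in uMT MLN cells, against 5.33 and 5.38 in the WT MLN cells of the same slides. Both knockout arrays stood above both WT arrays, and the fitted difference was 0.39 ± 0.14 (± is the standard error of the limma fit), unadjusted p = 0.036 and adjusted p = 0.333. Psmb10, another catalytic subunit, measured 7.32 in AID KO and 6.99 in uMT MLN cells, against 7.19 and 6.49 in WT MLN cells of the same slides. Each knockout array was above its slide's WT array, but the groups overlapped, and the difference was 0.31 ± 0.13 (limma adjusted p = 0.389). Psmb8, which supplies the third catalytic site, measured 5.39 in AID KO and 5.82 in uMT MLN cells, against 5.30 and 5.64 in WT MLN cells. The groups overlapped and the difference was 0.13 ± 0.11, with 95% limits of -0.15 and 0.42.

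Of the transporter, Tap1 measured 5.41 in AID KO and 5.25 in uMT MLN cells, against 4.99 and 4.93 in WT MLN cells. Both knockout arrays stood above both WT arrays, and the difference of 0.37 ± 0.11 had an unadjusted p of 0.022 and an adjusted p of 0.292 (limma). Tap2, its partner in the transporter, measured 6.55 in AID KO and 6.60 in uMT MLN cells, against 6.50 and 6.37 in WT MLN cells, a difference of 0.14 ± 0.10. The Tap2 groups did not overlap, but the AID KO array was only 0.05 above its WT array. Tapbp, the bridge between TAP and class I, measured 6.06 in AID KO and 6.60 in uMT MLN cells, against 6.04 and 6.24 in WT MLN cells, and the difference was 0.19 ± 0.12.

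Of the class I chains, B2m, the light chain, measured 8.04 in AID KO and 7.75 in uMT MLN cells, against 8.02 and 7.46 in WT MLN cells, a difference of 0.15 ± 0.13 that rested on the uMT array. H2-K1 measured 9.02 in AID KO and 8.89 in uMT MLN cells, against 8.99 and 8.56 in WT MLN cells, with a difference of 0.18 ± 0.14. H2-D1 measured 7.84 in AID KO and 7.87 in uMT MLN cells, against 7.72 and 7.90 in WT MLN cells, and its difference was 0.05 ± 0.11. H2-K1 and H2-D1 are close paralogs, and their probes may share signal. Nlrc5, the transactivator, measured 5.72 in AID KO and 5.68 in uMT MLN cells, against 5.49 and 5.56 in WT MLN cells. Its groups did not overlap, and the difference of 0.17 ± 0.11 had a limma adjusted p of 0.513. The widest 95% limits over the 10 genes in MLN ran from -0.23 to 0.74, or from 0.851-fold to 1.67-fold, so a rise of any of them beyond 1.67-fold lies outside the limits of the fit.

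The knockout lines differed in how far the shift depended on scale. In uMT MLN cells 9 of 10 genes were above the WT array of the slide, with a median difference of 0.31, but the equally bright features had a median of 0.26 there. Quantile normalization brought the median of the 10 genes to -0.03 with 4 of 10 higher, while Psmb9 kept a difference of 0.34, Psmb10 of 0.24 and Tap1 of 0.20, and H2-D1 moved to -0.46. In AID KO MLN cells all 10 genes were above the WT array, with a median of 0.11 under the main scaling and 0.13 under quantile normalization, and the bright features had a median of -0.03. Psmb9, Psmb10, Tap1 and Tapbp were higher in both lines under both scalings by the probes used, while the second probes of Tap1 and Tapbp were lower in uMT, at -0.52 and -0.41.

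**Figure D2:**
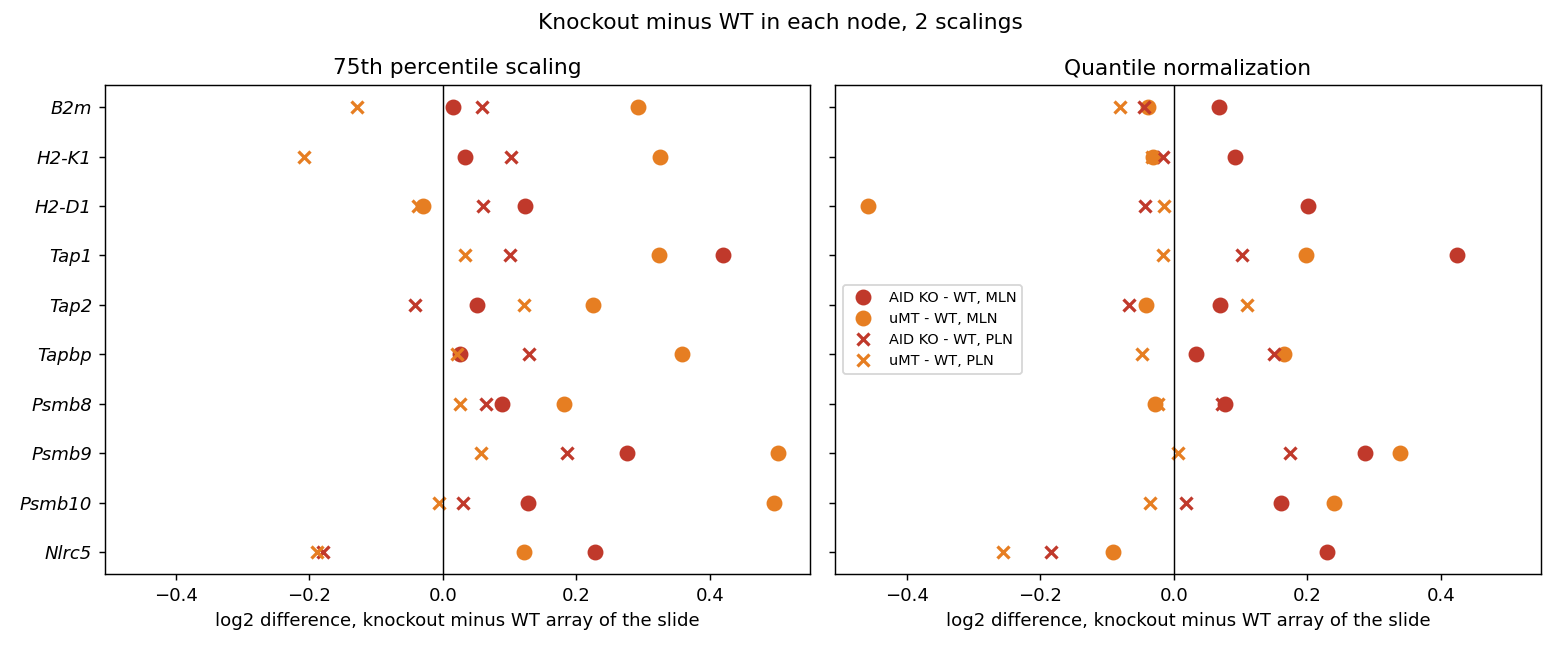
Log2 difference of each knockout array from the WT array of the same slide and node (x axis) for the 10 genes (y axis), with the 75th percentile scaling on the left and quantile normalization on the right. Filled circles are MLN and crosses PLN. The uMT MLN points move left under quantile normalization, from a median of 0.31 to one of -0.03, while the AID KO MLN points stay at a median of 0.11 and 0.13.

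The size of these differences was set beside other interferon-regulated genes on the same arrays, from a list that was chosen with earlier results of these data known. Of 23 testable genes of the type I interferon response, all were higher in knockout than in WT MLN cells and 13 passed the test (limma, the 0.179% background above), with a median of 1.62. Rsad2, an antiviral enzyme, measured 0.74 in AID KO and 2.30 in uMT MLN cells, against -2.18 and -1.54 in WT MLN cells, and rose by 3.38 ± 0.11 (limma adjusted p = 0.0198). Ifit3 rose by 2.84 ± 0.16 (limma adjusted p = 0.0213). Ifi44 also passed but was not well above background on either WT MLN array, so no fold is given. Leaving out any 1 of the 12 arrays ended all 13 calls, as did the matched pair block, the fit without a filter on dim probes and the fit on total cells alone. The list's median stayed between 1.52 and 1.75 when an array was left out. The interferon-gamma list of 14 genes had a median of 0.79, with Iigp1, an interferon-inducible GTPase, past the threshold at 2.33 ± 0.14 (limma adjusted p = 0.0256). That call too was lost whenever an array was left out. The class I presentation genes, with a median of 0.18, thus differed by less than each of these lists on the same arrays. The difference between the lists was not tested.

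**Figure D3:**
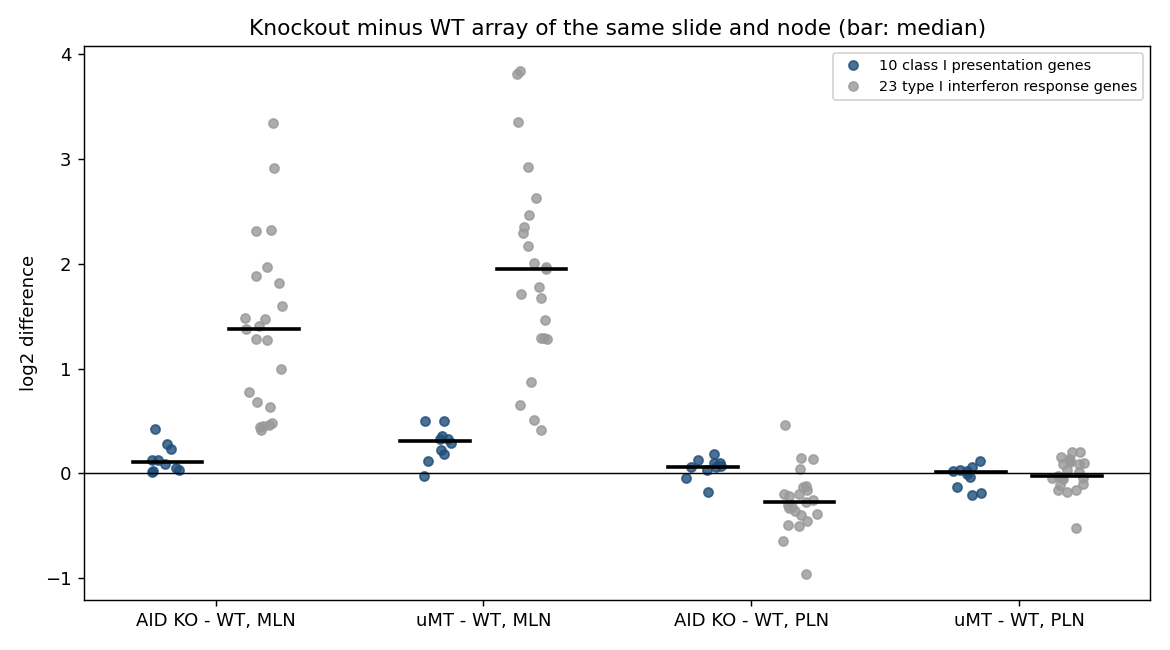
Log2 difference of each knockout array from the WT array of the same slide and node (y axis) for the 10 class I presentation genes (blue) and 23 type I interferon response genes (grey). Bars are medians. In MLN the grey medians lie at 1.38 in AID KO and 1.95 in uMT, against 0.11 and 0.31 for the blue ones, and in PLN at -0.28 and -0.02, against 0.06 and 0.01.

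In PLN the mean of the knockouts differed from WT in none of the 10 genes (limma, adjusted p from 0.711 to 0.994), and 0 of 25741 features passed (0%), although 2282 had an unadjusted p under 0.05, none of the 10 genes among them. The median of the 10 genes was 0.03, with 7 of 10 higher, and 5 of 10 under quantile normalization. Psmb9 measured 5.55 in AID KO and 5.37 in uMT PLN cells, against 5.37 and 5.31 in WT PLN cells of the same slides, a difference of 0.12 ± 0.14. Tap1 measured 5.01 in AID KO and 5.20 in uMT PLN cells, against 4.90 and 5.17 in WT PLN cells, a difference of 0.07 ± 0.11. Nlrc5 ran the other way, at 5.37 in AID KO and 5.53 in uMT PLN cells, against 5.55 and 5.72 in WT PLN cells, and its difference of -0.18 ± 0.11 did not pass. Among the class I chains, H2-K1 measured 8.79 in AID KO and 8.98 in uMT PLN cells, against 8.69 and 9.19 in WT PLN cells, above WT in one line and below it in the other. B2m showed the same split, with differences from the WT PLN array of the slide of 0.06 in AID KO and -0.13 in uMT PLN cells. Psmb10 measured 6.53 in AID KO and 7.06 in uMT PLN cells, against 6.50 and 7.06 in WT PLN cells, so that the slides differed and the genotypes hardly did. H2-D1, Tap2, Tapbp and Psmb8 differed from the WT array of the slide by -0.04 to 0.13 in PLN. The type I interferon list had a median of -0.13 in PLN. The 95% limits of the 10 genes in PLN ran from -0.46 to 0.47.

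Whether the knockouts differed from WT by more in MLN than in PLN was tested as an interaction. No feature passed (0 of 25741, 0%), with 1115 at an unadjusted p under 0.05, none of the 10 genes among them. All 10 genes had a larger difference in MLN, by a median of 0.21, and 7 of 10 had under quantile normalization, with a median of 0.07. Equally bright features had a median interaction of 0.08 in the main scaling. The largest interaction was that of Nlrc5, at 0.36 ± 0.15 with an unadjusted p of 0.067 and an adjusted p of 0.999 (limma). Next came Tap1 at 0.31 ± 0.16 and Psmb10 at 0.30 ± 0.19.

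With both nodes in 1 term, none of the 10 genes passed the test in either knockout. For AID KO against WT, where 232 features passed (0.901%), the 10 genes ranged from -0.04 (Nlrc5) to 0.23 (Psmb9) with a median of 0.07, and none had an unadjusted p under 0.05 (limma adjusted p 0.489 to 0.998). For uMT against WT, where 9 features passed (0.035%), they ranged from -0.01 (H2-D1) to 0.28 (Psmb9) with a median of 0.14, again with none under 0.05 before adjustment. Equally bright features had a median of 0.03 in AID KO against WT and of 0.12 in uMT against WT. Under quantile normalization the uMT median of the 10 genes was 0.03 with 5 of 10 higher, against 9 of 10 in the main scaling. Without the uMT MLN array the uMT median of the 10 genes was 0.00, and without the uMT PLN array it was 0.30. Tap1 was higher by 0.21 ± 0.12 in AID KO and by 0.23 ± 0.12 in uMT, but with the mean of its probes the uMT difference was -0.00040. These fits share the WT arrays, so the likeness of the values in both lines is no separate evidence.

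Between nodes, MLN against PLN, 27 features passed (0.105%) and none of the 10 genes did. Psmb8 came nearest, with an unadjusted p of 0.020 and a limma adjusted p of 0.426. Psmb8 measured 5.39, 5.82, 5.64 and 5.30 in MLN cells (AID KO, uMT and the WT arrays of slides 1 and 2), against 5.53, 5.13, 5.46 and 5.10 in PLN cells (in the same order), and the fitted difference was 0.23 ± 0.07. The uMT MLN and AID KO PLN arrays lay on slide 1, and the AID KO MLN and uMT PLN arrays on slide 2. Within a knockout line, node and slide therefore cannot be told apart. In the WT cells alone Psmb8 was higher in MLN by 0.18 on slide 1 and 0.20 on slide 2. The other immunoproteasome subunits were higher in MLN by 0.21 ± 0.11 (Psmb10) and 0.15 ± 0.10 (Psmb9), while B2m, H2-K1 and H2-D1 were lower, at -0.07, -0.05 and -0.04. On slides 1 and 2 the WT arrays alone gave -0.01 and 0.12 for Psmb10 and 0.01 and 0.02 for Psmb9. The knockout arrays of each slide, which are of different lines, gave 0.45 and 0.26 for Psmb10 and 0.33 and 0.24 for Psmb9. H2-K1 was higher, at 0.01, under quantile normalization.

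In naive cells the arrays compared Sca1p with Sca1m fractions. Ly6a, which encodes Sca-1, was higher in Sca1p cells by 3.67 (limma adjusted p = 0.071), as the sort would give. Only 4 of 25740 features passed (0.0155%), and none of the 10 genes did, with 9 of 10 higher and a median of 0.16. Psmb8 measured 5.40 in uMT and 5.57 in AID KO Sca1p cells, against 5.11 and 5.02 in the Sca1m cells of the same lines. The Sca1p arrays did not overlap the Sca1m arrays, and the difference was 0.43 ± 0.11 (unadjusted p = 0.007, limma adjusted p = 0.347) and 0.38 under quantile normalization. Psmb9 measured 5.61 in uMT and 5.83 in AID KO Sca1p cells, against 5.49 and 5.34 in Sca1m cells, a difference of 0.30 ± 0.15. B2m measured 8.63 in uMT and 8.85 in AID KO Sca1p cells, against 8.50 in both Sca1m fractions, a difference of 0.24 ± 0.13. By the probes used, 9 of 10 genes were higher in the Sca1p fraction in each line, all but Tap2, and under quantile normalization 7 were in AID KO and 8 in uMT. The second probes of Tap1 (-0.13) and Tapbp (-0.02) in uMT and of Nlrc5 (-0.005) in AID KO were lower in Sca1p cells. Those of H2-K1 in both lines, of Tap1 and Tapbp in AID KO and of Nlrc5 in uMT were higher. Psmb10 measured 7.04 in uMT and 7.32 in AID KO Sca1p cells, against 6.99 and 6.97 in Sca1m cells, and H2-K1 measured 9.13 and 9.38 in Sca1p cells, against 9.05 and 9.16 in Sca1m cells (uMT and then AID KO). Tap1 measured 4.50 in uMT and 4.71 in AID KO Sca1p cells, against 4.44 and 4.45 in Sca1m cells. In each of these the AID KO pair lay further apart than the uMT pair. Tap2 was the exception to the direction, at -0.07 ± 0.09. Its second probe, well above background on 9 of the 12 arrays, gave -1.25 in uMT and -0.58 in AID KO. With the mean of both probes Tap2 was lower in Sca1p cells by -0.49.

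The AID KO pair gave most of that difference, with a median of 0.26 over the 10 genes, while the uMT pair gave 0.07. Bright features had a median of 0.15 in the AID KO pair and 0.00 in the uMT pair, and under quantile normalization the medians of the 10 genes were 0.07 and 0.08. Psmb8 kept a difference of 0.45 in the AID KO pair and 0.32 in the uMT pair on that scale. The macrophage and monocyte list contains Ly6c2, a gene that CD8+ T cells also express. The summed level of the list, in which bright genes weigh most, was 131.4 and 100.5 in AID KO and uMT Sca1p cells, against 42.7 and 41.5 in Sca1m cells. Of its 5 testable genes 4 were higher in Sca1p cells, with a median of 0.35 and a highest value of 1.52, and none passed the threshold. Whether other cells had a part in the result was not tested. The interferon-gamma list was higher in Sca1p cells for all 14 genes (median 0.35) and the type I list for all 23 (median 0.27), with no gene of either past the threshold.

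**Figure D4:**
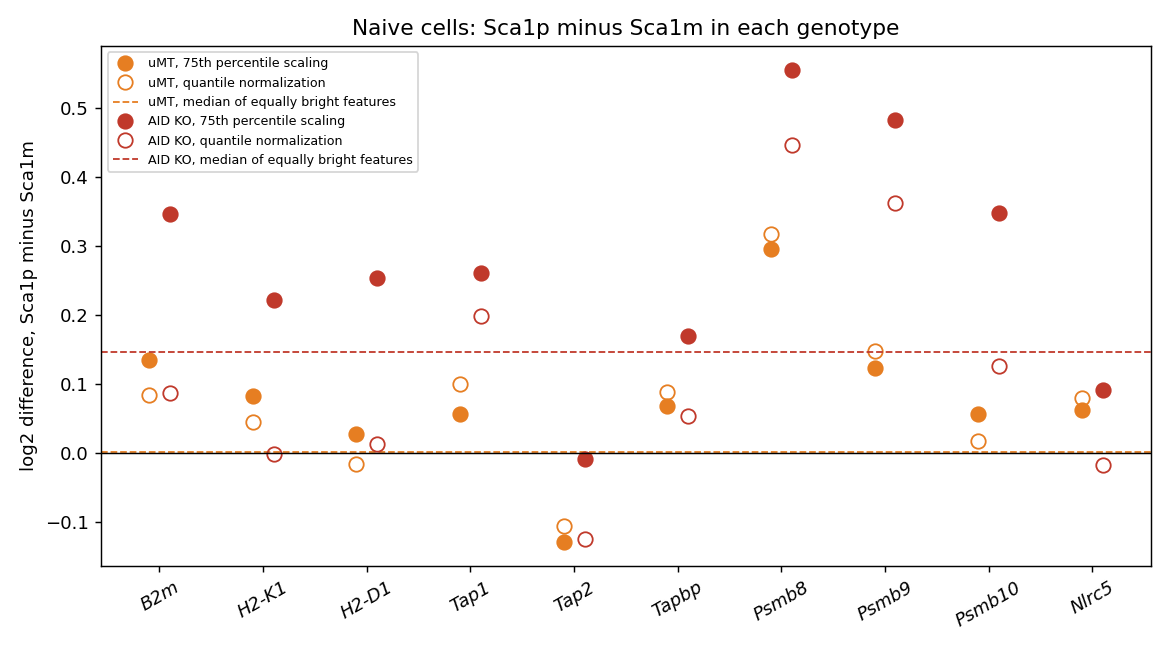
Log2 difference of Sca1p from Sca1m naive cells (y axis) for the 10 genes (x axis) in uMT (orange) and AID KO (red) mice, with filled circles for the 75th percentile scaling and open ones for quantile normalization. Dashed lines are medians of 1796 equally bright features, 0.15 in AID KO and 0.00 in uMT. Psmb8 lies highest in both lines on both scales.

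Between the naive cells of uMT and AID KO mice, 89 of 25737 features passed (0.346%), and none of the 10 genes did, nor had any an unadjusted p under 0.05 (limma adjusted p 0.730 to 0.999). All 10 were lower in uMT cells, by a median of -0.11 and at most by -0.26 for Nlrc5, and under normexp background correction 1 was higher. Nlrc5 measured 5.56 in Sca1p and 5.50 in Sca1m cells of uMT mice, against 5.84 and 5.75 in those of AID KO mice. The Nlrc5 arrays of the lines did not overlap. Over the 10 genes the median difference was -0.21 in Sca1p cells and -0.01 in Sca1m cells, where bright features had medians of -0.10 and 0.06. Under quantile normalization these medians of the 10 genes were -0.11 and -0.04, and H2-K1, Tap2, Tapbp and Nlrc5 were lower by more in Sca1m than in Sca1p cells.

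Correlations between the members were taken over the 8 arrays of total cells, after removing slide means. Of 45 pairs 40 had a positive Pearson correlation, with a median of 0.46 and a range from -0.47 to 0.96, over arrays that share slides, WT samples and scaling. The share of positive pairs among other features was not computed. Equally bright features had a median difference of 0.26 in uMT MLN cells on this scale. Whether the count is particular to these genes was not tested. Psmb9 and Psmb10 had the highest mean correlation with the rest, 0.64 and 0.61, and H2-D1 the lowest, at -0.06. The named genes whose pattern came closest to the mean of the 10 were Ptges, Naa20, Ly6e, Pla2g4b and Trim30a, with Pearson correlations from 0.980 to 0.989 over the 8 arrays. They were picked as the highest among all named genes, so the size of these correlations is no evidence of a link. Their standard deviations after removing slide means ran from 0.04 (Ptges) to 0.41 (Trim30a).

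The rest of the pathway was read from lists chosen by gene name. Those lists held the folding and loading partners (11 of 12 testable), the proteasome activators (3 of 4, namely Psme1, Psme3 and Psme4), the constitutive catalytic subunits (3 of 3) and the shared 20S core (12 of 12). They also held the nonclassical class I genes (13 of 16), the class I transcription factors (15 of 15) and the interferon receptors (4 of 4). No gene of these lists passed in any of the 8 comparisons. In knockout against WT MLN cells their medians were -0.01, -0.03, 0.11, 0.19, 0.13, 0.17 and -0.07 in that order. The 20S core, which interferon does not exchange, was thus as far from 0 as the 10 genes on this scale. Among single genes, H2-T24, a nonclassical class I gene, was higher by 1.07 (limma adjusted p = 0.126) and Stat2, part of the type I interferon signal, by 0.83 (limma adjusted p = 0.093), neither past the threshold. H2-Q1, of the nonclassical list, was not well above background on either knockout MLN array and was so on 1 of 2 WT MLN arrays, so no difference is given for it.

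Second probes bear on how far a gene value can be trusted. The array holds a further probe for H2-K1, Tap1, Tap2, Tapbp and Nlrc5. For Tap1 the second probe gave 0.39 in AID KO MLN cells, near the 0.42 of the first, but -0.52 in uMT MLN cells against 0.32. For Tapbp the second probe gave -0.41 in uMT MLN cells against 0.36, and for Nlrc5 it gave -0.16 in AID KO and -0.21 in uMT MLN cells against 0.23 and 0.12. The second Tap2 probe gave -0.37 in AID KO MLN cells against 0.05, and -0.98 in uMT MLN cells against 0.23, but it was not well above background on the uMT MLN array. With the mean of both probes Tap2 was lower in knockout MLN cells, at -0.27. The second H2-K1 probe gave 0.07 in AID KO and 0.09 in uMT MLN cells, against 0.03 and 0.33. The directions in MLN of Tap1 and Tapbp in uMT, and of Nlrc5 and Tap2 in both lines, therefore held for 1 probe of 2.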

How the data were processed

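Cy3-labelled RNA of each of the 12 samples was read on an Agilent array. Per the file headers, the deposited scanner files hold the intensity of each spot from Agilent Feature Extraction 11.0.1.1, already subtracted for background, and other values, 0 or 1 flags for spots well above background, saturated or outlying. The deposited series table holds log2 values that correlated with the scanner values at a Pearson r of 1.00 per array and were quantile normalized within each of the 3 slides, with column medians of 9.47, 8.59 and 8.99 on the slides, so it served as an alternative only.

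Here log2 intensities minus the array's 75th percentile were used. Outlier spots were dropped (61 to 342 per array), probes of a gene were kept if well above background on at least 2 arrays, and the brightest stood for the gene. Of 56605 probes, 32989 had 1 symbol through accession and the RefSeq table of GRCm38.p6, 0 had several and 23616 stayed unnamed. The array's own coordinates are of an older assembly and were not used. Between 50.1% and 56.8% of spots were well above background. The number of arrays limits the precision.

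Differences were fitted with limma 3.58.1 in R 4.3.3, once over all 12 arrays, with terms for slide, node, AID KO and uMT, and for uMT and Sca1p in naive cells (4 residual degrees of freedom, or 3 with the knockout by node term). Tests were two-sided. On simulated data of the AID KO comparison (25593 features), 54% and 60% of falls and rises of 1 log2 unit were called. The 10 genes are all named. From other lists, up to 3 genes past the threshold, or up to 2 of the largest otherwise, are named. The members, lists and motifs were chosen with earlier results of these data known. Alternatives were background correction, normalization, filters, probe choice, slide and pair terms, and leaving out each array. Normexp was run on median pixel signals.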

Additional observations from a re-analysis of the deposited data

Results flagged for a closer look

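Nlrc5 was higher in both knockout MLN arrays than in the WT array of the slide, by 0.23 in AID KO and 0.12 in uMT, and lower in both knockout PLN arrays, by -0.18 and -0.19, so that the nodes differed by 0.36. The interaction did not pass (limma unadjusted p = 0.067, adjusted p = 0.999), and the second Nlrc5 probe was lower in knockouts in both nodes. Under quantile normalization Nlrc5 was lower in uMT MLN cells too, at -0.09, so the flagged pattern did not hold there. Equally bright features had a median of 0.26 in uMT MLN cells under the main scaling.

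H2-D1 was lower in both uMT arrays than in the WT arrays (-0.04 in PLN and -0.03 in MLN) and higher in both AID KO arrays (0.06 in PLN and 0.12 in MLN), a difference of -0.12 between the lines that was not tested. Under quantile normalization it was lower in AID KO PLN cells, at -0.04, so the pattern did not hold. Genes were flagged here by sign alone, when both differences of a node or line opposed both of the other. How often random signs give such a split was not computed.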

How the results depend on the processing

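None of the 10 genes passed the threshold in any of the 8 comparisons under any alternative that could be fitted, and the lowest adjusted p over all of them was 0.187 (uMT against WT without the uMT PLN array). Of 1710 alternative values of single genes, all below the threshold, 95 had the opposite sign. The numbers of all features past the threshold moved by more than 1.5 times. With 1 array left out they ranged from 1 to 159 for AID KO against WT (232 in the main setting), 0 to 8 for uMT (9), 2 to 22 for MLN against PLN (27), 0 to 177 for Sca1p (4), 26 to 202 for naive uMT against AID KO (89), 0 to 2 for knockouts in MLN (46) and 0 for knockouts in PLN and for the interaction (0 each). Under the other alternatives the ranges were 14 to 586, 0 to 111, 16 to 74, 0 to 22, 0 to 115, 0 to 115, 0 to 12 and 0 to 23, in the same order with PLN and the interaction last. The percentile over probes well above background on all 12 arrays was added after the data were seen. The labels carry no replicate numbers. The matched pair block set each knockout against the WT array of its node and slide. It cannot give MLN against PLN or a naive comparison, and the fit without a slide term is the main fit for naive cells, so these have no value. Each knockout group has 1 array, and leaving it out rests the comparison on the other node or line.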
